A study of Mus musculus with 56 samples.

Results

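The livers of 8 chow-fed and 8 DIO-MASH mice, both dosed with vehicle, were compared gene by gene over the whole table of deposited RNA sequencing counts. DIO-MASH stands for diet-induced obese mice with metabolic dysfunction-associated steatohepatitis, a liver disease of fat, inflammation and scarring. The 16 mice were taken from the 56 mice of the study, 8 in each of 7 groups. They were chosen by their treatment and diet labels (ChowVehicle on CHOW against NASHVehicle on AMLN). The 5 groups given drug entered the choice of genes tested, the scaling of libraries and the estimate of the spread between mice. Only the 16 vehicle mice were compared. All were male C57BL/6J mice, 5 to 6 weeks old on arrival, kept for 36 weeks on standard chow or on the AMLN diet, a feed high in fat with added fructose and cholesterol, and then injected under the skin each day for 8 weeks with vehicle. AMLN-fed mice entered the study only where a biopsy taken before dosing had shown steatosis and fibrosis, and were spread over treatment groups by their stained collagen and body weight, so the DIO-MASH group holds only mice with established disease. Diet, body weight and selection by biopsy differ together between the groups and cannot be told apart. A piece of whole frozen liver was sequenced from each mouse, in which fewer cells of a type and less RNA per cell cannot be told apart either. Mice are numbered 1 to 8 within a group in the order of their records, which pairs no chow mouse with a DIO-MASH mouse.

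The healthy liver is mostly hepatocytes, which secrete the proteins of blood plasma, make bile acids and urea, and clear drugs, and which do so in zones between the portal tracts and the central veins. Stellate cells, sinusoidal endothelial cells and resident macrophages (Kupffer cells) line the blood channels between them. In steatohepatitis hepatocytes store triglyceride in lipid droplets, macrophages derived from blood monocytes join the Kupffer cells, stellate cells turn into matrix-secreting myofibroblasts, and small bile ducts multiply.

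The libraries held 5228187 to 17157826 reads on genes in chow mice and 7393654 to 16434379 in DIO-MASH mice, and depth did not differ past the spread between mice (exact permutation test, two-sided, p = 0.897). Reads were spread over more genes in DIO-MASH livers, in which the 50 genes with most reads took 31.1 to 34.2% of a library, against 35.3 to 43.1% in chow livers. That share dropped by 6.61 percentage points in DIO-MASH mice, with no overlap (exact permutation test, two-sided, p = 0.000155, the smallest that 8 against 8 mice can give). Albumin (Alb) alone took 8.88 to 14.6% of the reads in chow and 4.89 to 7.35% in DIO-MASH livers. TMM normalization, which sets the bulk of genes level between libraries, scaled all chow libraries down (factors 0.708 to 0.898) and all DIO-MASH libraries up (1.08 to 1.20). Levels are given below as counts per 1000000 reads of these scaled libraries (CPM), which are not corrected for gene length and serve to compare mice, not genes.

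Chow mouse 8 and chow mouse 2 stood apart from the other chow mice. In chow mouse 8 the 22 markers of gut, stomach or gallbladder epithelium summed to 5700 CPM, against 29.5 to 57 CPM in the other chow mice and 120 to 151 CPM in DIO-MASH mice, and 529 genes lay 2 or more log2 units above the median of the other chow mice. In DIO-MASH mice nearly all of that sum was 1 gene, the fatty acid binding protein Fabp2 (102–134 CPM). The chow mouse 8 library also held 231 CPM of myofibroblast and 78.9 CPM of muscle markers, the highest of its group. Its highest genes included Tff2, a trefoil peptide of mucus-secreting epithelium, at 1387 CPM against at most 0.27 CPM in the other chow mice, and keratin 20 (Krt20) at 259 CPM against 0 reads in the others. Chow mouse 2 held high levels of acute phase transcripts, with 5193 CPM of serum amyloid A1 (Saa1) and 3089.6 CPM of lipocalin 2 (Lcn2), against medians of 23.6 and 3.68 CPM over all chow mice, and 149 genes at 2 or more log2 units above its group. Both libraries were kept, since the labels do not set them apart, and the results they change are given with and without them.

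**Figure D1:**
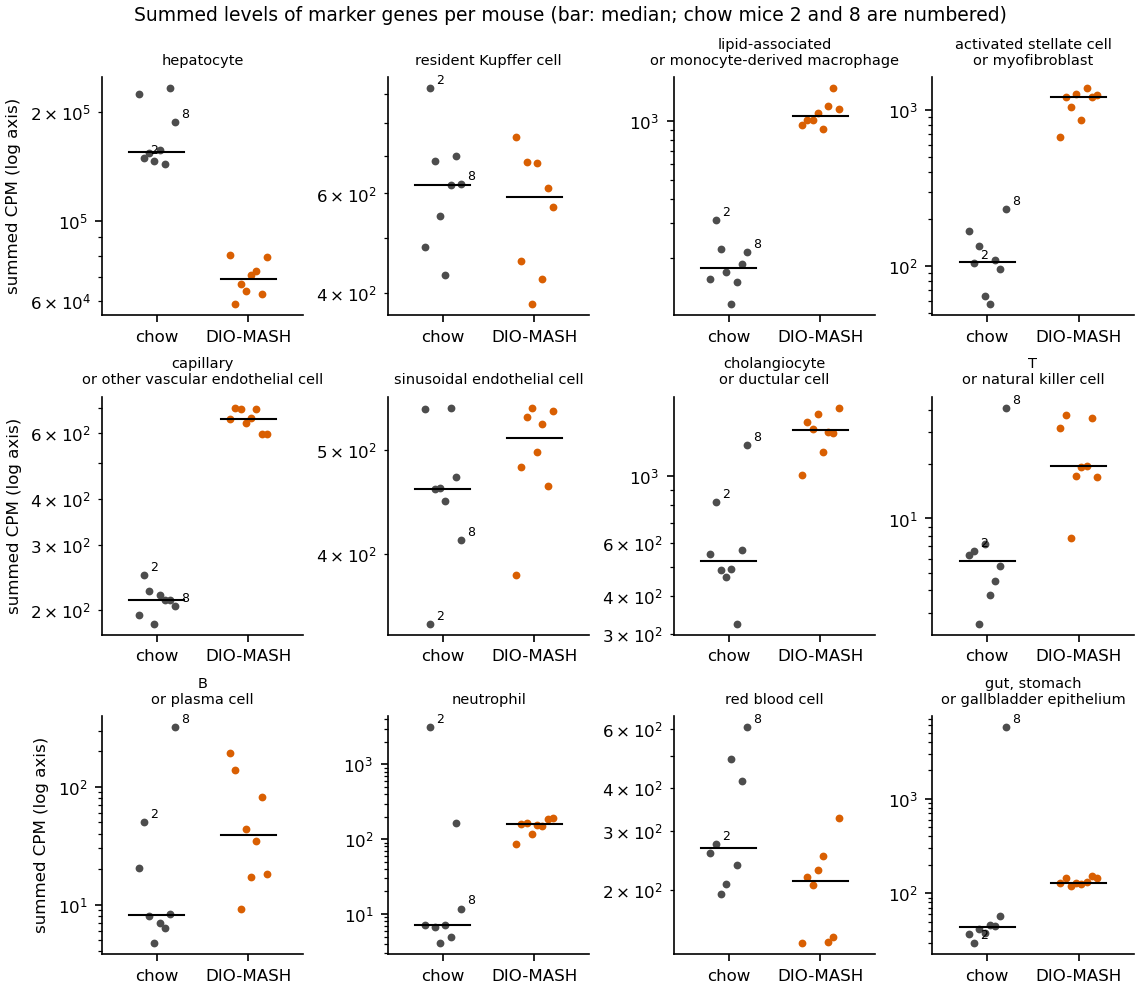
Summed CPM of the marker genes of 12 cell types in each liver, on log axes, with 1 point per mouse (8 chow, 8 DIO-MASH) and chow mice 2 and 8 numbered. Chow mouse 8 lies far above its group in the gut, stomach or gallbladder panel (5700 CPM). Chow mouse 2 does so in the neutrophil panel (3140 CPM, nearly all of it Lcn2). The myofibroblast, lipid-associated macrophage and capillary sums (higher in DIO-MASH) and the hepatocyte sum (lower) separate the groups without overlap.

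Of 21935 genes in the table, 14105 had enough reads to be tested (5 or more reads in 3 or more of the 56 mice). More genes passed the test than did not. By edgeR's quasi-likelihood test with Benjamini-Hochberg adjustment at 0.05, 55.4% of them differed between the groups, 28.9% higher and 26.5% lower in DIO-MASH livers. Log2 fold changes are DIO-MASH over chow and stand with their SE, and adjusted p-values are from that test. These percentages are the background against which each group of genes below is to be read, together with the median log2 fold change of all genes tested, 0.01. Rises were larger than falls. Among the 7811 genes that differed, 2468 rose and 545 fell by 2-fold or more, and 324 rose and 76 fell by 8-fold or more. In 14.7% of genes the test was passed, the mean was 1 CPM or more and no chow mouse overlapped any DIO-MASH mouse, 8.24% on the higher and 6.45% on the lower side. Chow livers varied more from mouse to mouse, with a median SD of log2 CPM of 0.308 against 0.225 over 11877 genes, and the SD was larger in chow for 77.3% of those genes (72.5% without chow mouse 8). The test used a spread shared by all 7 groups, with a common coefficient of variation between mice of 22.63%. Within chow mice alone it was 34.43% (25.82% without chow mouse 8) and within DIO-MASH mice 18.43%. The spread behind the SEs thus lies below that of chow mice.

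The split into rises and falls rests on the scaling. With library totals and no TMM factor, an alternative added after seeing the data, the median of all genes tested moved from 0.01 to 0.47, and 8537 genes passed the test higher and 773 lower, in place of 4072 and 3739. Directions below are therefore relative to the bulk of genes, and where the median of a list changes sign under library totals, both medians are given. Without chow mouse 8, 7929 of 14086 genes passed, 7354 of them in both fits with the same direction and 25 with opposite directions, and all 314 genes whose log2 fold change moved by 1 or more moved upward. The mouse numbers in the labels fall into 4 series, each with mice of both groups, and 7977 genes passed with the series as a covariate.

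**Figure D2:**
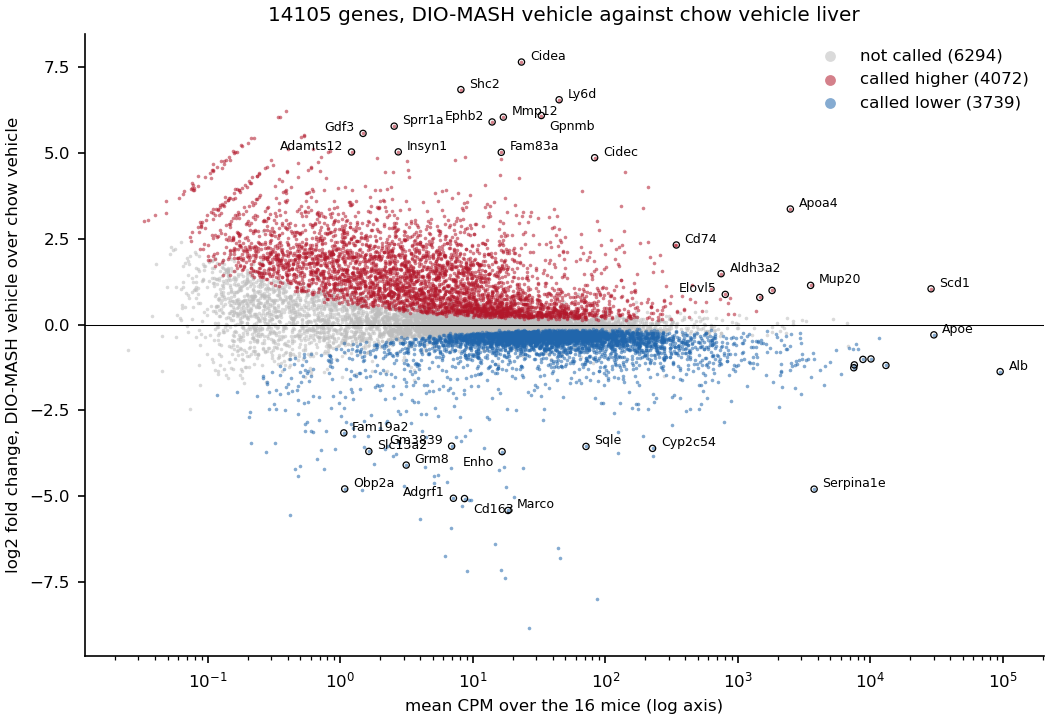
Log2 fold change of DIO-MASH over chow vehicle (y axis) against mean CPM on a log axis (x axis) for the 14105 genes tested. Genes past an adjusted p of 0.05 are coloured by direction. Labels mark the 12 largest rises and falls among genes without overlap and with a mean of 1 CPM or more. These are ranked by the smaller log2 fold change of the fits with and without chow mouse 8. Some of the largest gains and losses in CPM are labelled too. Cidea has the largest rise labelled (7.65) and Marco the largest fall (-5.42).

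No gene went from absence in 1 group to a level of 1 CPM or more in all mice of the other. At the lowest levels, 13 genes had no read in any chow mouse and at least 1 read in every DIO-MASH mouse, and 0 genes the reverse. The 13 included the monocyte chemokine Ccl7, with 1 to 15 reads per DIO-MASH mouse and a rise of at least 12-fold over the limit of 3 counts for the chow group, and Olr1, a receptor for oxidized lipoprotein, at least 8.57-fold. Counting error alone sets these limits. Among the genes tested, 44 had no read in any chow mouse and 0 had no read in any DIO-MASH mouse. The choice of genes tested drew on all groups, and every group given drug was fed the AMLN diet. A gene absent from chow livers could therefore enter more easily than one absent from DIO-MASH livers. No conclusion is drawn from the difference between 13 and 0 genes.

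The 12 largest rises and falls given next are those among genes that passed with and without chow mouse 8, had a mean of 1 CPM or more and did not overlap between the groups, ranked by the smaller log2 fold change of both fits. Hsd3b5 and Mup12, which overlapped and are given further on, fell by more than some of them. Cidea, which fuses lipid droplets, was at 0–0.832 CPM (median 0.147) in chow and 25.3–67 CPM (median 47.2) in DIO-MASH livers (log2 fold change 7.65 ± 0.62, adjusted p = 2.53e-14). Its relative Cidec rose from 0.615–13.7 CPM (median 3.87) to 96–218 CPM (median 166) (log2 fold change 4.86 ± 0.50, adjusted p = 1.52e-11). Chow livers held almost no Cidea (log2 fold change 8.34 without chow mouse 5), and no chow mouse reached the lowest DIO-MASH mouse for either gene. Gpnmb, a membrane glycoprotein of lipid-laden macrophages (GRCm38 chr6:49036546-49070929), rose from 0.208–1.98 CPM (median 0.876) to 45.9–82.8 CPM (median 68.2) (log2 fold change 6.09 ± 0.57, adjusted p = 1.57e-12). The macrophage elastase Mmp12 (chr9:7344381-7369499) rose from 0.118–0.821 CPM (median 0.471) to 18.2–57.7 CPM (median 32.1) (log2 fold change 6.04 ± 0.52, adjusted p = 9.45e-14). Neither gene overlapped between the groups. Ly6d (chr15:74762056-74763620), a surface protein of squamous epithelium and lymphoid precursors, rose from 0.0768–1.95 CPM (median 0.978) to 42.8–165 CPM (median 77.1) (log2 fold change 6.55 ± 0.69, adjusted p = 2.99e-11). The adaptor Shc2 (chr10:79618051-79637918) rose from 0–0.369 CPM (median 0.134) to 4.56–26 CPM (median 16.1) (log2 fold change 6.85 ± 0.71, adjusted p = 1.92e-11). The ephrin receptor Ephb2 (chr4:136647539-136835988) rose from 0–1.48 CPM (median 0.356) to 16.2–35.4 CPM (median 30.4) (log2 fold change 5.9 ± 0.54, adjusted p = 5.61e-13). The remaining 5 of the 12 largest rises, each without overlap, were Sprr1a (log2 fold change 5.78, and 6.59 and 6.51 without chow mouse 3 or 8), Gdf3 (5.57), Insyn1 (5.03, and 5.68 without chow mouse 6), Adamts12 (5.03) and Fam83a (5.02).

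Among the falls, Marco (chr1:120474538-120505024), a scavenger receptor for bacteria, was at 8.22–94.6 CPM (median 14.6) in chow and 0–3.54 CPM (median 0.36) in DIO-MASH livers (log2 fold change -5.42 ± 1.01, adjusted p = 1.03e-05). Cd163 (chr6:124304656-124330527), the receptor that clears haemoglobin bound to haptoglobin, fell from 6.26–46.1 CPM (median 13.5) to 0–2.84 CPM (median 0.040) (log2 fold change -5.07 ± 1.05, adjusted p = 5.92e-05). In most DIO-MASH livers both genes were close to 0, and DIO-MASH mouse 1 held the highest Cd163 of that group, without which the log2 fold changes were -7.75 for Cd163 and -6.69 for Marco. The adhesion receptor Adgrf1 (chr17:43270329-43324737) fell from 9.48–21.1 CPM (median 13) to 0.0847–0.941 CPM (median 0.394) (log2 fold change -5.06 ± 0.41, adjusted p = 2.53e-14). Serpina1e (chr12:103946931-103958975), 1 of several near-identical mouse copies of the alpha-1-antitrypsin gene, whose reads may be divided among them, fell from 4487–14968 CPM (median 6452) to 52.3–652 CPM (median 155) (log2 fold change -4.8 ± 0.80, adjusted p = 1.65e-06). Enho (chr4:41638144-41640324), which encodes the secreted peptide adropin, fell from 20.9–51 CPM (median 26.7) to 0.965–4.85 CPM (median 1.99) (log2 fold change -3.7 ± 0.32, adjusted p = 1.17e-13). All of these fell without overlap between the groups. The other 7 of the 12 largest falls were Obp2a (log2 fold change -4.79), Grm8 (-4.1), Slc13a2 (-3.7), Cyp2c54 (-3.61), Sqle (-3.55), Gm3839 (-3.54) and Fam19a2 (-3.16). Slc13a2, a kidney and gut citrate carrier, was highest in chow mouse 8 (10.5 CPM) and fell by 3.1 on the log2 scale without it.

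**Figure D3:**
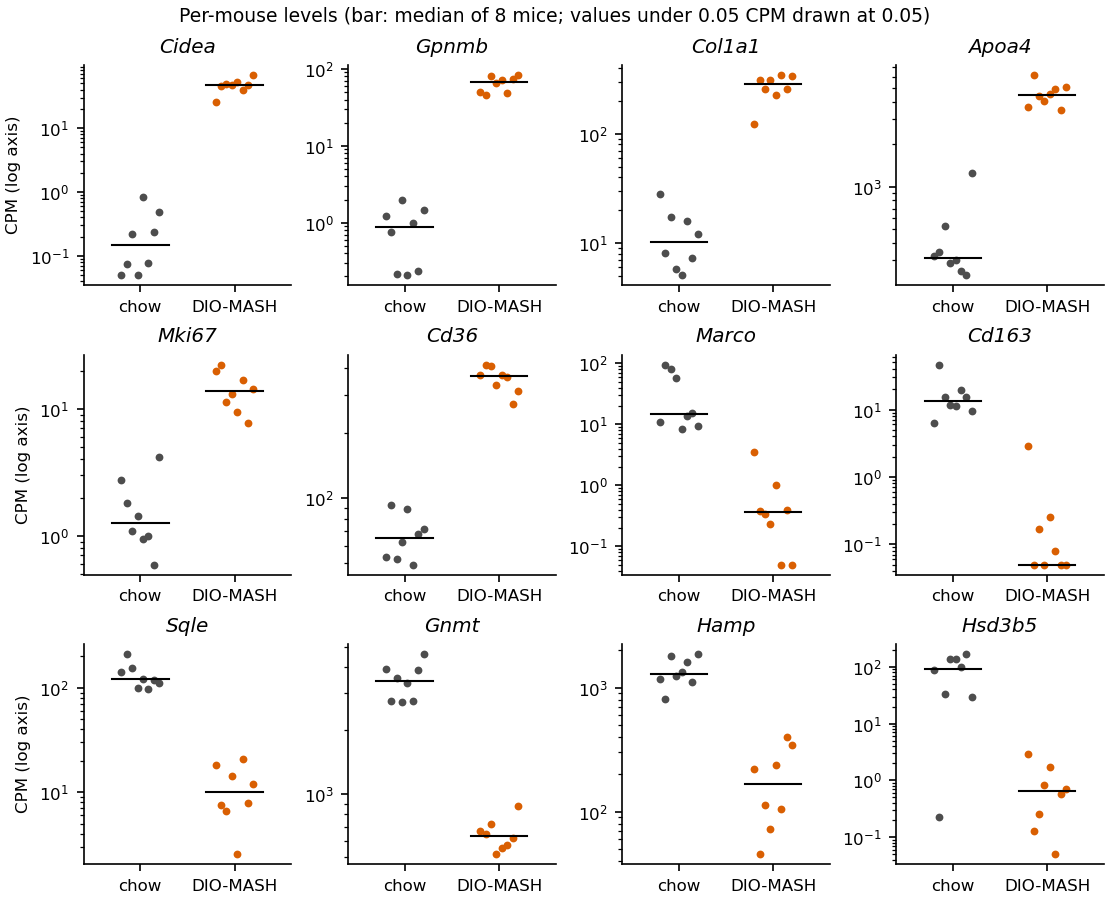
CPM on log axes of 12 genes in each of the 8 chow and 8 DIO-MASH mice, with values under 0.05 CPM drawn at 0.05 and a bar at each group's median. Cidea, Gpnmb, Col1a1, Apoa4 and Cd36 lie higher and Marco, Cd163, Sqle, Gnmt and Hamp lower in DIO-MASH mice without overlap, while for Hsd3b5 chow mouse 2 (0.226 CPM) lies among the DIO-MASH mice.

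Genes of cholesterol synthesis fell together. Cells make cholesterol from acetyl-CoA in a chain of enzymes whose genes are switched on by the transcription factor SREBP2 when sterols are low. Of 26 genes of synthesis and uptake tested, 0 rose and 24 fell, 20 of them without overlap, with a median log2 fold change of -1.29 against 0.01 for all genes. All 20 synthesis enzymes fell. Squalene epoxidase (Sqle, chr15:59315077-59331192), which commits squalene to sterols, fell from 96.9–210.3 CPM (median 121) to 2.54–20.9 CPM (median 9.98) (log2 fold change -3.55 ± 0.45, adjusted p = 3.44e-09). Isopentenyl diphosphate isomerase (Idi1) fell from 14.7–37.8 CPM (median 21) to 1.55–7.36 CPM (median 3.38) (log2 fold change -2.75 ± 0.26, adjusted p = 2.44e-12). The groups lay well apart for both. The later steps Msmo1 (-2.46 ± 0.20), Tm7sf2 (-2.44 ± 0.20) and Cyp51 (-2.31 ± 0.20) fell by similar log2 amounts, again with no overlap. Insig1, the sterol-dependent brake on SREBP processing, did not pass (log2 fold change -0.51 ± 0.30, adjusted p = 0.148). With library totals, 20 of the 26 genes still fell and 0 rose (median -0.84).

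The promoters of 3 of these genes are shown because they are the start regions of enzymes that fell. All 3 hold letters of the NF-Y motif, and only that of Hmgcs1 the core of the SREBP motif searched here. The windows are the 250 bases before the RefSeq start on GRCm38.p6, 5′ to 3′ on the strand of the gene, with matches to CCAAT (the NF-Y box, either strand, hence also ATTGG) and to TCACNCCAC (a core of the sterol response element, either strand) in capitals. Hmgcs1 (HMG-CoA synthase, chr13:119690101-119690350, plus strand) was chosen after its values and its window were seen, and holds the sterol core 137 bases before the start beside 3 CCAAT boxes. Idi1 (chr13:8885356-8885605, plus strand) holds 2 CCAAT boxes and Msmo1 (chr8:64733579-64733828, minus strand) 3.
Hmgcs1: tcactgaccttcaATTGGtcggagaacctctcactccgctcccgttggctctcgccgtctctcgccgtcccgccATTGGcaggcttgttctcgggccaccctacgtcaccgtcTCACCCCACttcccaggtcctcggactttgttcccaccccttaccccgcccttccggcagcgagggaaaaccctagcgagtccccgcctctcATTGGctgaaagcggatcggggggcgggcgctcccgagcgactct
Idi1: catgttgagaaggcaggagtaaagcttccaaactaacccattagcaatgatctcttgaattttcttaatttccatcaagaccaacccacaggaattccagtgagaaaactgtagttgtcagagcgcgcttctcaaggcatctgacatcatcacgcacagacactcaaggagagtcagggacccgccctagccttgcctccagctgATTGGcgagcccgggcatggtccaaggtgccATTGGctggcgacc
Msmo1: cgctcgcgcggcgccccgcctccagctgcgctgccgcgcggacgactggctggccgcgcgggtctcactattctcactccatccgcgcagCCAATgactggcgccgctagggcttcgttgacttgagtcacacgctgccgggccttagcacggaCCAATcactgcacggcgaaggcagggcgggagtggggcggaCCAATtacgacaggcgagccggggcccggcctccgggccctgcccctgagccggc
Hmgcs1 was at 112–579 CPM (median 351) in chow and 82.2–223 CPM (median 180.2) in DIO-MASH livers and fell (log2 fold change -1.12 ± 0.23, adjusted p = 4.27e-05). A window of 300 bases (250 before to 50 after the start) was given for 18 of the 26 genes. In these, CCAAT was found in 16 (88.9%), against 42.6% of the 11059 tested genes with a window, and TCACNCCAC in 1 (5.56%), against 1.48%. A match describes letters in the window and not binding.

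Of 12 genes of cholesterol export and LXR targets, 4 rose and 4 fell, with a median of 0.19 (7 rose and 0 fell with library totals, median 0.65). Abcg1, a sterol exporter of macrophages, rose from 3.32–10.9 CPM (median 6.4) to 23.9–37.8 CPM (median 30.5) (log2 fold change 2.16 ± 0.22, adjusted p = 1.19e-11). Soat1, the cholesterol-esterifying enzyme of macrophages, rose from 2.46–5.64 CPM (median 3.66) to 10.3–17.5 CPM (median 14.5) (log2 fold change 1.9 ± 0.24, adjusted p = 2.20e-09), whereas the hepatocyte enzyme Soat2 fell from 44.2–63.5 CPM (median 50.7) to 23.3–38.9 CPM (median 31.8) (log2 fold change -0.75 ± 0.14, adjusted p = 8.77e-06). All 3 were without overlap. Abcg8, which exports sterols into bile, did not pass the test (log2 fold change -0.22 ± 0.25, adjusted p = 0.473).

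Fat synthesis and storage genes rose more often than they fell. In de novo lipogenesis, 14 of 22 genes rose and 4 fell, with a median of 0.68, although all but 1 rise overlapped between groups. Stearoyl-CoA desaturase 1 (Scd1), which makes monounsaturated fat, was at 14940.3–26339 CPM (median 17799) in chow and 20525–56185 CPM (median 39009.8) in DIO-MASH livers and rose (log2 fold change 1.04 ± 0.19, adjusted p = 5.43e-06). Its relative Scd2 rose from 5.1–13.9 CPM (median 7.33) to 27.9–53.6 CPM (median 42.4) (log2 fold change 2.34 ± 0.25, adjusted p = 3.01e-11), without overlap. Fatty acid synthase (Fasn) was at 713–1996 CPM (median 1104) in chow and 787–4477 CPM (median 2355) in DIO-MASH livers and rose (log2 fold change 0.99 ± 0.36, adjusted p = 0.0156). The log2 fold change of Fasn was 0.79 without DIO-MASH mouse 3 (adjusted p = 0.0576) and 0.84 without chow mice 2 and 8 (adjusted p = 0.0624), so that call rests on single mice. Against the rest of the list, Lpin1, a phosphatidate phosphatase and coactivator, fell from 316–861 CPM (median 512) to 90–273 CPM (median 190.2) (log2 fold change -1.61 ± 0.30, adjusted p = 1.32e-05), without overlap, and acetyl-CoA synthetase Acss2, a target of SREBP2 as well as SREBP1, fell (log2 fold change -1.59 ± 0.28, adjusted p = 4.02e-06). ATP citrate lyase (Acly) varied widely in DIO-MASH livers, at 129.8–687 CPM (median 407), and did not pass the test (log2 fold change 0.34 ± 0.33, adjusted p = 0.402).

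In the lipid droplet and fatty acid uptake list 14 of 26 genes rose and 3 fell (median 0.54), 9 of the rises without overlap. Besides Cidea and Cidec, the droplet coat protein Plin4 rose from 1.54–10.5 CPM (median 6.06) to 35.2–79.2 CPM (median 46.9) (log2 fold change 3.16 ± 0.43, adjusted p = 1.82e-08). Mogat1, which makes diacylglycerol, rose from 0.0753–1.66 CPM (median 0.851) to 5.75–14.9 CPM (median 10.3) (log2 fold change 3.59 ± 0.31, adjusted p = 1.73e-13). The fatty acid translocase Cd36 rose from 49–92.8 CPM (median 65.2) to 273–413 CPM (median 367) (log2 fold change 2.4 ± 0.15, adjusted p = 8.20e-18), and its adjusted p was the smallest of any gene named here. For these 3 genes every DIO-MASH mouse lay above every chow mouse. Fabp4, a fatty acid binding protein of adipocytes and macrophages, rose (log2 fold change 2.97 ± 0.26, adjusted p = 2.46e-13), while the liver form Fabp1 (log2 fold change 0.11 ± 0.16, adjusted p = 0.593) and the droplet enzyme Hsd17b13 (log2 fold change -0.06 ± 0.11, adjusted p = 0.683) did not pass.

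Fatty acid oxidation moved little. Of 32 genes, 4 rose, 8 fell and 20 did not pass, with a median of -0.03 that became 0.42 with library totals (21 rose and 1 fell). None of the 4 ketogenesis genes passed. Carnitine palmitoyltransferase Cpt1a, which admits fatty acids to mitochondria, was likewise not called (log2 fold change 0.14 ± 0.14, adjusted p = 0.406). Pdk4, the kinase that shuts pyruvate out of oxidation, was the main exception and rose from 1.06–3.15 CPM (median 2.64) to 6.86–20.5 CPM (median 11.4) (log2 fold change 2.37 ± 0.35, adjusted p = 1.39e-07), without overlap. The peroxisomal thiolase Acaa1b rose from 234–1466 CPM (median 1109) to 1677–1982 CPM (median 1859.9) (log2 fold change 0.79 ± 0.18, adjusted p = 2.61e-04), with chow mouse 2 far below its group at 234 CPM.

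Bile acid synthesis and uptake fell. Of 15 genes of synthesis 0 rose and 9 fell (median -0.57, and -0.13 with 3 rises and 5 falls under library totals). Sterol 27-hydroxylase (Cyp27a1) fell from 620.5–784 CPM (median 705) to 299–369.8 CPM (median 325) (log2 fold change -1.08 ± 0.09, adjusted p = 1.04e-13). Oxysterol 7-hydroxylase (Cyp7b1) fell from 127–377 CPM (median 262) to 56–113 CPM (median 85.2) (log2 fold change -1.66 ± 0.26, adjusted p = 5.78e-07). Cyp2c70, which makes the muricholic acids of the mouse, fell (log2 fold change -1.32 ± 0.22, adjusted p = 1.62e-06), as did the steroid reductase Akr1d1 (log2 fold change -1.31 ± 0.17, adjusted p = 1.07e-08). All 4 fell without overlap. The rate-limiting enzyme of the classical pathway, Cyp7a1, varied over several-fold within both groups, at 115–492 CPM (median 200.4) in chow and 69.8–262 CPM (median 158) in DIO-MASH livers, and did not pass (log2 fold change -0.57 ± 0.35, adjusted p = 0.168), nor did the 12-hydroxylase Cyp8b1 (log2 fold change -0.34 ± 0.28, adjusted p = 0.317). Of 15 carriers of bile acids and organic anions 2 rose and 9 fell (median -0.38, and 0.08 with library totals). All 6 uptake carriers fell (median -1.77), with the sodium-dependent bile acid carrier Slc10a1 at 814–1107 CPM (median 972) in chow and 243–359.9 CPM (median 321) in DIO-MASH livers (log2 fold change -1.62 ± 0.14, adjusted p = 9.83e-14). Of the 9 exporters 2 rose and 3 fell (median -0.01, and 0.44 with library totals).

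Drug-metabolizing cytochrome P450 genes fell broadly, 26 of 34 lower and 1 higher (median -1.04). Cyp1a2, a caffeine-oxidizing enzyme of the central zone, fell from 607–1209 CPM (median 887) to 133–239 CPM (median 157) (log2 fold change -2.32 ± 0.22, adjusted p = 3.01e-12). In the Cyp2c family, whose near-identical copies may share reads, Cyp2c54 fell from 246–582 CPM (median 428) to 13.9–88.9 CPM (median 29.3) (log2 fold change -3.61 ± 0.40, adjusted p = 1.03e-10), and Cyp2c37 (log2 fold change -2.94 ± 0.37, adjusted p = 3.56e-09). None of the 3 overlapped. Cyp2b10, the classic target of the receptor CAR (Nr1i3), fell from 1.08–109 CPM (median 3.29) to 0.0847–0.841 CPM (median 0.37) (log2 fold change -5.3 ± 0.72, adjusted p = 2.09e-08). Chow mouse 8 held 109 CPM, and without it the log2 fold change was -2.9. Nr1i3 itself fell from 84.1–139.6 CPM (median 113) to 30.9–77.8 CPM (median 56.3) (log2 fold change -1.07 ± 0.17, adjusted p = 5.09e-07). The receptor PXR (Nr1i2) did not pass (log2 fold change -0.12 ± 0.12, adjusted p = 0.389).

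Of 40 genes of amino acid catabolism 39 fell and 1 rose, 27 of the falls without overlap, with a median of -1.01 that was -0.54 with library totals (30 lower, 2 higher). All 8 urea cycle genes fell, with carbamoyl-phosphate synthetase Cps1 going from 4364–7128 CPM (median 4899.6) to 1471–2647 CPM (median 1724) (log2 fold change -1.54 ± 0.20, adjusted p = 7.79e-09) and argininosuccinate synthetase Ass1 from 1916–4178 CPM (median 3471) to 792–1376 CPM (median 852) (log2 fold change -1.83 ± 0.17, adjusted p = 1.03e-12). Gnmt, which uses up methyl groups of S-adenosylmethionine, fell from 2726–4603 CPM (median 3451) to 518–873 CPM (median 631) (log2 fold change -2.41 ± 0.19, adjusted p = 1.41e-14). The lowest chow mouse was well above the highest DIO-MASH mouse for these 3 genes. Cystathionine gamma-lyase (Cth, -2.12 ± 0.19), histidine ammonia-lyase (Hal, -2.13 ± 0.36), liver glutaminase (Gls2, -2.06 ± 0.23) and alanine-glyoxylate aminotransferase (Agxt, -2.26 ± 0.23) fell by similar log2 amounts, each without overlap.

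Nuclear-encoded genes of oxidative phosphorylation fell by small amounts in near unison, 71 of 74 lower and 0 higher, with a median of -0.46 and a range from -0.79 to -0.08. These are subunits of the respiratory chain and ATP synthase. Their direction depends on the scaling, since with library totals 6 rose, 9 fell and the median was 0.01. A similar pattern held for 79 cytosolic ribosomal proteins, a list added after seeing the data, with 54 lower and 0 higher (median -0.27, and 0.19 with 23 higher and 0 lower under library totals).

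Of 28 glucose and glycogen genes 9 rose and 7 fell, shares near the 28.9% and 26.5% of all genes tested (median 0.11). Phosphoenolpyruvate carboxykinase Pck1, the entry to gluconeogenesis, fell from 1371–4511 CPM (median 3195) to 397–1495 CPM (median 1266) (log2 fold change -1.37 ± 0.28, adjusted p = 4.19e-05), with overlap between groups. Hexokinase 2 (Hk2), which is low in hepatocytes, rose from 0.473–2.95 CPM (median 0.705) to 5.9–16.5 CPM (median 10.6) (log2 fold change 3.33 ± 0.33, adjusted p = 7.47e-12), without overlap. The fructose enzyme Khk did not pass (log2 fold change -0.01 ± 0.13, adjusted p = 0.969).

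Secreted hepatocyte proteins lost most reads. The 8 largest losses in mean CPM were in Alb, C3, Serpina1e, Apoa1, Apoe, Ahsg, Cyp2e1 and Ttr, all secreted proteins but Cyp2e1. Albumin fell from 111964–186125 CPM (median 121063) to 43212–64742 CPM (median 52532) (log2 fold change -1.37 ± 0.14, adjusted p = 9.96e-12), and all 8 hepatocyte markers fell (median -1.29, and -0.81 with library totals). The summed hepatocyte markers were 144000 to 233000 CPM in chow and 58600 to 80500 CPM in DIO-MASH livers. Most of that sum was Alb in both groups. The markers also include Ttr, Apoa1, Cps1, Pck1 and Hnf4a, which are described here with other hepatocyte genes. The sum is thus no separate measure of hepatocyte content, whose part in the falls of hepatocyte genes was not tested. The fall of Apoe (log2 fold change -0.30 ± 0.11, adjusted p = 0.0148) did not pass without chow mouse 7 (-0.23, adjusted p = 0.0634) and was a gain of 0.17 with library totals. Of the 50 genes with most reads in chow livers, 45 fell, 1 rose and 4 did not pass. Among plasma proteins 27 of 32 fell and 1 rose (median -0.77). Transthyretin (Ttr), the thyroxine carrier, fell from 7255–13705 CPM (median 10057) to 3921–5546 CPM (median 4602) (log2 fold change -1.18 ± 0.14, adjusted p = 4.92e-10). Apom, a carrier of sphingosine-1-phosphate on HDL, fell from 209–380.1 CPM (median 281) to 72.9–99.8 CPM (median 77.5) (log2 fold change -1.76 ± 0.12, adjusted p = 1.10e-16). Apoa1, the main protein of HDL, fell (log2 fold change -1.0 ± 0.12, adjusted p = 1.33e-09). No mouse of either group overlapped for these 3. The exception was Apoa4, an apolipoprotein of triglyceride-rich particles, which rose from 236–1254 CPM (median 314) to 3508–6150.2 CPM (median 4468) (log2 fold change 3.37 ± 0.28, adjusted p = 5.98e-14), the second largest gain in CPM after Scd1.

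In complement and coagulation 33 of 39 genes fell and 1 rose (median -0.83, and -0.36 with 23 lower and 4 higher under library totals). The terminal complement gene C8b fell from 314–521 CPM (median 373) to 62.9–114 CPM (median 87.7) (log2 fold change -2.14 ± 0.25, adjusted p = 2.90e-10), coagulation factor VII (F7) (log2 fold change -1.55 ± 0.14, adjusted p = 7.14e-13) and the fibrinogen chain Fgb (log2 fold change -1.32 ± 0.17, adjusted p = 6.62e-09), all without overlap. The gene that rose was complement factor D (Cfd), a protease known mainly from adipocytes and macrophages, from 0–3.02 CPM (median 0.177) to 9.82–28.6 CPM (median 12.6) (log2 fold change 4.87 ± 0.69, adjusted p = 4.50e-08, and 6.27 without chow mouse 5). Of 4 tested adipocyte markers 2 rose, Cfd and Fabp4, while Lipe did not pass (log2 fold change 0.20 ± 0.18, adjusted p = 0.363) and Car3, which hepatocytes also express, fell (log2 fold change -1.02 ± 0.27, adjusted p = 0.00139).

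For acute phase proteins the result turned on chow mouse 2. With all mice 12 of 19 genes fell and 0 rose (median -0.87). Without chow mouse 2, 5 fell and 4 rose (median -0.16). Serum amyloid A2 (Saa2, whose reads may be shared with Saa1) was at 5875 CPM in chow mouse 2 and 6.07–891 CPM in the other chow mice, against 66.8–257 CPM (median 154) in DIO-MASH livers, and its log2 fold change went from -2.45 ± 0.85 to 0.18. Lcn2 was at 3089.6 CPM in chow mouse 2, 2.83–151 CPM in the other chow mice and 79.7–184 CPM (median 154) in DIO-MASH livers, and its log2 fold change went from -1.49 ± 0.83 (adjusted p = 0.123) to 2.53 (adjusted p = 0.00104). Orm2 likewise went from -2.3 ± 0.73 to 0.74. Most chow mice were thus below DIO-MASH mice for these genes, and chow mice 2 and 7 above or among them. Serpina3k, an abundant serine protease inhibitor, fell with or without that mouse, from 6482–12716 CPM (median 8374) to 1574–4816 CPM (median 3113) (log2 fold change -1.45 ± 0.30, adjusted p = 4.40e-05).

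**Figure D4:**
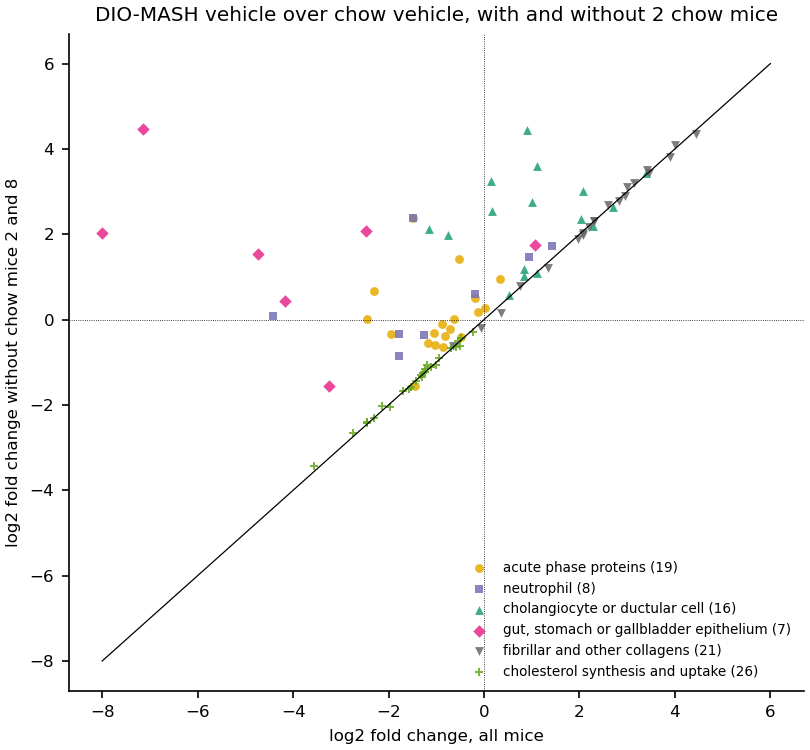
Log2 fold change of each tested gene of 6 lists with all mice (x axis) and without chow mice 2 and 8 (y axis), with the line of equality. Acute phase and neutrophil genes leave the line upward without chow mouse 2, gut and duct genes without chow mouse 8, and the 21 collagens and 26 cholesterol genes stay close to it.

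Of 6 genes of the FGF21 axis 1 rose, 2 fell and 3 did not pass (median -0.27, and 0.21 with library totals). Fgf21, a hormone secreted by hepatocytes under metabolic stress, was at 0.123–3.38 CPM (median 0.828) in chow and 1.94–6.33 CPM (median 2.78) in DIO-MASH livers and rose (log2 fold change 1.81 ± 0.43, adjusted p = 3.56e-04, and 2.45 without chow mouse 1), with overlap. Its coreceptor beta-klotho (Klb) fell from 42.1–63.1 CPM (median 48.8) to 15.2–34.9 CPM (median 26.1) (log2 fold change -1.02 ± 0.14, adjusted p = 5.11e-08). The main hepatocyte receptor Fgfr4 fell from 44.6–75.7 CPM (median 59) to 22.6–34.5 CPM (median 26.1) (log2 fold change -1.06 ± 0.12, adjusted p = 2.59e-10). Neither gene overlapped. Fgfr1 (-0.33 ± 0.22), Fgfr2 (-0.21 ± 0.17) and Fgfr3 (0.35 ± 0.24) did not pass. In the growth hormone and IGF list 3 of 12 genes rose and 5 fell (median -0.54, and -0.09 with library totals), with Igf1, the hormone that liver releases in response to growth hormone, falling from 495–779.8 CPM (median 664) to 281–489.9 CPM (median 330.1) (log2 fold change -0.90 ± 0.12, adjusted p = 1.34e-08), and its carrier subunit Igfals (log2 fold change -1.31 ± 0.16, adjusted p = 9.12e-10). Igfbp2, a binding protein of IGFs, fell (log2 fold change -1.41 ± 0.16, adjusted p = 1.51e-10), whereas Igfbp1 rose (log2 fold change 1.37 ± 0.42, adjusted p = 0.00492, and 2.05 without chow mouse 2).

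Genes that are higher in male than in female mouse liver, which depend on pulses of growth hormone, fell in 16 of 24 cases and rose in 2 (median -1.60). Hsd3b5, a steroid dehydrogenase of male liver, was at 0.226 CPM in chow mouse 2 and 28.9–167 CPM in the other 7 chow mice, against 0–2.9 CPM (median 0.636) in DIO-MASH livers (log2 fold change -6.52 ± 1.35, adjusted p = 5.66e-05, and -7.24 without DIO-MASH mouse 1). Chow mouse 2 also held little of the carrier Slco1a1, at 5.49 CPM, against 198–604 CPM in other chow mice and 13–145 CPM (median 60.3) in DIO-MASH livers, which fell (log2 fold change -2.46 ± 0.73, adjusted p = 0.00366). Without chow mouse 2, 18 male-biased genes fell and 2 rose. The major urinary proteins Mup7 (log2 fold change -3.83 ± 1.08, adjusted p = 0.00225), Mup11 (log2 fold change -3.76 ± 0.98, adjusted p = 9.98e-04) and Mup12 (log2 fold change -4.17 ± 0.91, adjusted p = 1.23e-04) fell too (-4.64 for Mup7 and -4.99 for Mup12 without DIO-MASH mouse 1), with levels that varied widely among chow mice. Mup20 rose (log2 fold change 1.14 ± 0.27, adjusted p = 3.06e-04). Their near-identical copies may share reads. Of 22 female-biased genes 8 rose and 4 fell (median 0.34), with Cyp2a4 going from 0.0901–1.35 CPM (median 0.677) to 1.64–25.9 CPM (median 6.54) (log2 fold change 3.89 ± 0.73, adjusted p = 1.21e-05), without overlap.

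Among transcription factors of hepatocyte identity 15 of 24 fell and 1 rose (median -0.48, and -0.02 with 3 lower and 4 higher under library totals). Hnf4a, the central factor of hepatocyte differentiation, fell from 907–1144 CPM (median 995) to 349–547 CPM (median 442) (log2 fold change -1.19 ± 0.14, adjusted p = 3.91e-10), without overlap. Ppara, the fatty acid-sensing receptor (log2 fold change 0.02 ± 0.19, adjusted p = 0.951), and Prox1 (log2 fold change -0.17 ± 0.18, adjusted p = 0.430) did not pass. By zone, 17 of 21 periportal genes fell and 1 rose (median -1.19, and -0.73 with library totals), against 11 of 22 pericentral genes with 3 rises (median -0.30, and 0.17 with library totals), a difference between lists that was not tested. Periportal Cyp2f2 fell from 1275–2565 CPM (median 1807) to 182–813 CPM (median 496) (log2 fold change -1.8 ± 0.34, adjusted p = 1.19e-05), and Etnppl, which breaks down phosphoethanolamine (log2 fold change -2.58 ± 0.36, adjusted p = 3.71e-08). Pericentral Avpr1a, the vasopressin receptor, fell from 13–47 CPM (median 19.6) to 2.2–7.41 CPM (median 5.34) (log2 fold change -2.13 ± 0.28, adjusted p = 1.21e-08), and the Wnt inhibitor Notum (log2 fold change -1.29 ± 0.18, adjusted p = 2.37e-08). Gulo did not pass (log2 fold change -0.08 ± 0.10, adjusted p = 0.531). The amino acid carrier Slc1a4 rose from 2.92–6.92 CPM (median 3.87) to 11.1–28.8 CPM (median 14.5) (log2 fold change 1.92 ± 0.32, adjusted p = 1.67e-06).

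**Figure D5:**
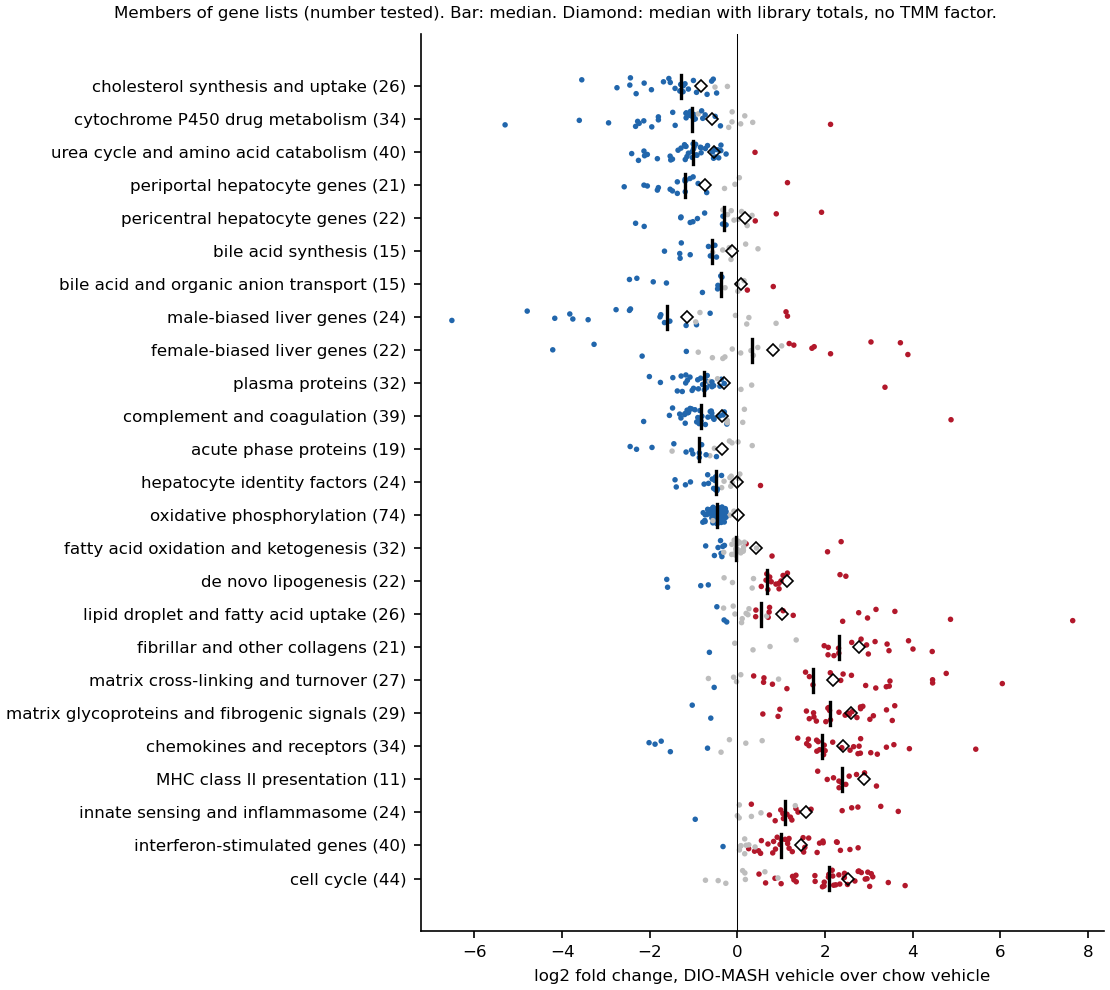
Log2 fold change of each tested gene of 25 lists (x axis), coloured by whether it was higher, lower or not past the test. A bar marks each list's median and a diamond its median under library totals. Male-biased liver genes (median -1.6) and cholesterol synthesis and uptake (-1.29) have the lowest medians. MHC class II presentation (2.38) and the collagens (2.31) have the highest.

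Resident Kupffer cell markers did not move as 1 group, and all 12 are given. Marco and Cd163 fell as above, and Timd4, a receptor for dying cells, fell from 2.08–12.6 CPM (median 4.56) to 0.173–3.54 CPM (median 0.802) (log2 fold change -2.2 ± 0.54, adjusted p = 5.10e-04). The iron exporter Slc40a1 (log2 fold change -0.75 ± 0.17, adjusted p = 1.66e-04) and Nr1h3 (log2 fold change -0.35 ± 0.09, adjusted p = 0.00105), the LXR-alpha gene that hepatocytes also express, fell by less, and with library totals Nr1h3 was at 0.12. By contrast the pan-macrophage marker Adgre1 (F4/80) rose from 8.43–27.2 CPM (median 13.2) to 32.3–52.1 CPM (median 49.9) (log2 fold change 1.65 ± 0.28, adjusted p = 1.58e-06), without overlap, and Cd5l from 27.2–236 CPM (median 61.2) to 80.8–267 CPM (median 202) (log2 fold change 1.11 ± 0.30, adjusted p = 0.00171). The defining Kupffer lectin Clec4f did not pass, at 21.6–110.3 CPM (median 45.8) in chow and 17.9–90.3 CPM (median 42.4) in DIO-MASH livers (log2 fold change -0.22 ± 0.32, adjusted p = 0.570), nor did Vsig4 (-0.19 ± 0.40), Folr2 (0.12 ± 0.35), Spic (0.53 ± 0.44) and Id3 (-0.30 ± 0.23). In all, 2 rose, 5 fell and 5 did not pass (median -0.26, and 0.19 with library totals), and the summed level of the 12 markers ranged from 430 to 921 CPM in chow and 382 to 755 CPM in DIO-MASH livers.

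Markers of lipid-associated and monocyte-derived macrophages rose in 12 of 15 cases and fell in 0 (median 2.77), and their sum was 116 to 310 CPM in chow and 905 to 1460 CPM in DIO-MASH livers. Trem2, the lipid receptor that defines these cells, rose from 0.0901–0.978 CPM (median 0.50) to 10.2–24.6 CPM (median 12.6) (log2 fold change 4.8 ± 0.44, adjusted p = 9.09e-13). The integrin Itgax (CD11c) rose from 0.541–3.57 CPM (median 1.12) to 18–28.9 CPM (median 23.9) (log2 fold change 4.07 ± 0.40, adjusted p = 6.77e-12). Osteopontin (Spp1), which bile duct cells also make, rose from 20.8–49.4 CPM (median 30.5) to 172–532 CPM (median 330.1) (log2 fold change 3.4 ± 0.42, adjusted p = 2.39e-09). No chow mouse reached the level of any DIO-MASH mouse for these genes. Fabp5 (log2 fold change -0.48 ± 0.39, adjusted p = 0.303), Atp6v0d2 (log2 fold change -0.24 ± 0.29, adjusted p = 0.511) and the monocyte marker Ly6c2 (log2 fold change 0.56 ± 0.46, adjusted p = 0.302) did not pass, although Ly6c2 did without chow mouse 2 (1.27, adjusted p = 0.02).

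Chemokines and their receptors rose in 25 of 34 cases and fell in 5 (median 1.92), and without chow mouse 2 in 26 and 2 (median 2.43). Of the 11 receptors 10 rose. The monocyte receptor Ccr2 rose from 0.384–2.86 CPM (median 1.33) to 11.4–18.9 CPM (median 15.1) (log2 fold change 3.4 ± 0.34, adjusted p = 8.90e-12). The fractalkine receptor Cx3cr1 rose from 0.435–4.43 CPM (median 2.03) to 16.3–33.8 CPM (median 29) (log2 fold change 3.57 ± 0.37, adjusted p = 1.46e-11). For both the groups stayed apart. The eosinophil chemokine Ccl24 did not pass (log2 fold change -0.37 ± 0.39, adjusted p = 0.430). In innate sensing 17 of 24 genes rose and 1 fell (median 1.09), led by the Toll-like receptors Tlr1, which rose from 0.118–0.677 CPM (median 0.32) to 2.12–7.13 CPM (median 4.39) (log2 fold change 3.67 ± 0.36, adjusted p = 6.77e-12), and Tlr9 (3.27 ± 0.37), while their adaptor Myd88 (0.00 ± 0.09) did not pass. The inflammasome adaptor Pycard was at 17.7 CPM in chow mouse 8 and 0.307–1.3 CPM in the other chow mice, and its log2 fold change went from 0.54 ± 0.45, which did not pass, to 2.51 without that mouse (adjusted p = 5.76e-09).

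All 11 genes of MHC class II presentation rose (median 2.38, and 2.97 without chow mouse 8). Their master regulator Ciita went from 0.217–3.45 CPM (median 1.04) to 7.53–14.5 CPM (median 10.5) (log2 fold change 3.17 ± 0.36, adjusted p = 2.20e-10). The beta chain H2-Eb1 rose from 14.5–97 CPM (median 27.4) to 154–363 CPM (median 242) (log2 fold change 2.72 ± 0.32, adjusted p = 4.00e-10). Both were without overlap. Interferon-stimulated genes rose in 31 of 40 cases and fell in 1 (median 0.99). Ifit2 rose from 1.31–2.91 CPM (median 1.66) to 10.5–18.2 CPM (median 11.9) (log2 fold change 2.75 ± 0.28, adjusted p = 8.90e-12), and Ifi44 (log2 fold change 2.57 ± 0.25, adjusted p = 2.33e-12), whereas Irf7 (log2 fold change 0.08 ± 0.13, adjusted p = 0.622) and Bst2 (log2 fold change 0.17 ± 0.11, adjusted p = 0.195) did not pass.

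Lymphocyte markers rose from low levels. Of 17 T and natural killer cell markers 14 rose and 1 fell (median 1.77), and without chow mouse 8, 15 rose and 0 fell. Their sum was 2.61 to 7.21 CPM in chow mice other than mouse 8, 41 CPM in chow mouse 8 and 7.82 to 37.6 CPM in DIO-MASH livers. Pdcd1, the checkpoint receptor PD-1, rose from 0–0.123 CPM (median 0) to 0.235–2.04 CPM (median 0.453) (log2 fold change 4.3 ± 0.72, adjusted p = 1.63e-06). Granzyme A (Gzma) was the marker that fell (-2.81 ± 0.67), with 19.4 CPM in chow mouse 8, and was at 0.29 without that mouse (adjusted p = 0.619). Among B cell markers 6 of 8 rose and 0 fell (median 2.29), with Cd22 going from 0.513–1.96 CPM (median 1.0) to 4.23–12.4 CPM (median 5.56) (log2 fold change 2.71 ± 0.36, adjusted p = 1.41e-08), without overlap. The joining chain of antibodies, Jchain, was at 314 CPM in chow mouse 8, and its log2 fold change went from -0.17 ± 0.80 to 2.06 (adjusted p = 0.0225) without it. Dendritic cell markers rose in 7 of 10 cases and fell in 0 (median 1.70), with Flt3 going from 0–0.492 CPM (median 0.207) to 0.88–2.39 CPM (median 1.74) (log2 fold change 2.57 ± 0.37, adjusted p = 8.50e-08).

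Neutrophil markers depended on chow mouse 2. Their sum was 86.5 to 191 CPM in DIO-MASH livers, with a median of 158 CPM, against a median of 7.13 CPM in chow livers, of which mouse 2 held 3140 CPM and mouse 7 165 CPM. In DIO-MASH livers most of that sum was Lcn2, given above with the acute phase transcripts, at 79.7–184 CPM. The same held in chow mouse 2 (Lcn2 at 3090 CPM) and chow mouse 7 (151 CPM), so the sum mainly describes that gene. Of 9 neutrophil markers 1 rose and 3 fell (median -1.49), but without chow mouse 2, 3 rose and 0 fell (median 0.51). Csf3r, the receptor for granulocyte growth factor, rose from 0.369–2.86 CPM (median 0.982) to 1.98–3.89 CPM (median 3.37) (log2 fold change 1.43 ± 0.33, adjusted p = 1.99e-04). The myeloid granule gene Ngp was highest in chow mouse 2 (7.15 CPM, against at most 0.24 CPM in any other mouse), and the neutrophil calprotectin genes S100a8 (14.1 CPM) and S100a9 (16.6 CPM) were highest there too. Without that mouse the log2 fold changes were 0.23 for Ngp (adjusted p = 0.929), -0.73 for S100a8 (adjusted p = 0.333) and -0.27 for S100a9 (adjusted p = 0.748), in place of -4.42, -1.77 and -1.78. Of 7 red cell markers 1 fell and 0 rose. That gene was Alas2, the erythroid enzyme of haem synthesis (log2 fold change -0.93 ± 0.19, adjusted p = 3.16e-05), while Hba-a1 (-0.72 ± 0.39, and -0.95 with an adjusted p of 0.041 without DIO-MASH mouse 8), Hba-a2 (-0.70 ± 0.40), Hbb-bs (-0.46 ± 0.36) and Hbb-bt (-0.53 ± 0.41), which are near-identical copies in pairs, did not pass.

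Matrix genes rose broadly. Of 21 collagens 16 rose and 1 fell, 15 of the rises without overlap (median 2.31). The fibrillar collagen genes Col1a1 and Col3a1, which form scar fibres, rose from 5.1–28.3 CPM (median 10.2) to 123–344 CPM (median 284) (log2 fold change 4.44 ± 0.43, adjusted p = 3.47e-12), and from 10.4–39.5 CPM (median 25.6) to 256–507 CPM (median 417) (log2 fold change 4.01 ± 0.35, adjusted p = 1.38e-13). Col6a3, of the microfibrillar collagen around cells, rose from 6.15–12.2 CPM (median 6.81) to 57.1–197 CPM (median 117) (log2 fold change 3.9 ± 0.38, adjusted p = 3.62e-12). Every DIO-MASH liver was above every chow liver for these collagens. Col5a3 did not pass (log2 fold change -0.06 ± 0.21, adjusted p = 0.822). Of 27 genes of cross-linking and turnover 21 rose and 1 fell (median 1.72). The inhibitor of metalloproteases Timp1 rose from 0–0.527 CPM (median 0.207) to 3.49–8.98 CPM (median 5.9) (log2 fold change 4.76 ± 0.48, adjusted p = 8.88e-12). The gelatinase Mmp2 rose from 0.631–7.49 CPM (median 2.94) to 19.1–57.8 CPM (median 38.3) (log2 fold change 3.48 ± 0.45, adjusted p = 6.33e-09), so that a protease and an inhibitor rose together. Of 29 matrix glycoproteins and fibrogenic signals 27 rose and 2 fell, 24 of the rises without overlap (median 2.12), among them elastin (Eln), which rose from 0.728–2.58 CPM (median 0.985) to 8.79–22.8 CPM (median 14.3) (log2 fold change 3.53 ± 0.41, adjusted p = 3.02e-10), and lumican (Lum) (log2 fold change 3.1 ± 0.41, adjusted p = 7.68e-09).

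Stellate cell markers of both states rose. Of 14 markers of activated stellate cells or myofibroblasts 12 rose and 0 fell (median 3.01, with a sum of 56.8 to 231 CPM in chow and 671 to 1380 CPM in DIO-MASH livers), and of 10 markers of quiescent stellate cells 7 rose and 1 fell (median 1.54). In DIO-MASH livers most of the activated sum was Col1a1 (123–344 CPM), Col1a2 (136–289 CPM) and Col3a1 (256–507 CPM), which are matrix genes themselves. That sum therefore had to move with the matrix genes and is no separate result. The part of stellate cell numbers in the matrix result was not tested. Lrat, the retinol-esterifying enzyme of quiescent cells, rose from 6.24–16.1 CPM (median 8.47) to 28.7–39.7 CPM (median 34.4) (log2 fold change 1.81 ± 0.20, adjusted p = 8.40e-11). Hepatocyte growth factor (Hgf) rose from 2.22–8.38 CPM (median 5.12) to 15.7–25.8 CPM (median 17.7) (log2 fold change 1.84 ± 0.20, adjusted p = 9.86e-11). Neither gene overlapped. Smooth muscle actin (Acta2), the usual stain for activated stellate cells, did not pass (log2 fold change -0.69 ± 0.38, adjusted p = 0.113), with 50.1 CPM in chow mouse 8, 2.0–18.6 CPM in the other chow mice and 5.47–9.25 CPM (median 6.97) in DIO-MASH livers, and did not pass without that mouse either (0.27, adjusted p = 0.452). Without chow mouse 6 it passed as lower (-0.86, adjusted p = 0.0415). The smooth muscle gene Myh11 was likewise highest in chow mouse 8, at 63.1 CPM, and its fall (log2 fold change -1.5 ± 0.37, adjusted p = 6.64e-04) did not pass without that mouse (-0.54, adjusted p = 0.103). In the retinoid list 3 of 18 genes rose and 8 fell (median -0.30, and 0.17 with library totals). Rbp4, the retinol carrier that hepatocytes secrete, fell from 3719–5728 CPM (median 4769) to 2355–3197 CPM (median 2609) (log2 fold change -0.84 ± 0.10, adjusted p = 2.33e-10), and Cyp26a1, which degrades retinoic acid (log2 fold change -2.69 ± 0.55, adjusted p = 4.12e-05).

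Of 12 capillary and other vascular markers 11 rose and 0 fell (median 0.94), and their sum was 596 to 703 CPM in DIO-MASH livers, above every chow liver, with Cd36 a large part of it. The progenitor antigen Cd34 rose from 1.14–4.41 CPM (median 1.92) to 6.33–21.1 CPM (median 16) (log2 fold change 2.7 ± 0.40, adjusted p = 1.25e-07). The leukocyte adhesion molecule Vcam1 rose from 9.44–17.8 CPM (median 13) to 41.7–91.7 CPM (median 66) (log2 fold change 2.26 ± 0.24, adjusted p = 5.04e-11), without overlap. Of 12 sinusoidal markers 4 rose, 2 fell and 6 did not pass (median -0.05, and 0.40 with 7 higher and 0 lower under library totals), and the difference between both lists was not tested. Lyve1, the hyaluronan receptor, rose from 2.37–12.1 CPM (median 6.2) to 10.9–20.2 CPM (median 16.4) (log2 fold change 1.24 ± 0.27, adjusted p = 1.09e-04). The lectin Clec4g fell from 34.5–50.6 CPM (median 43.4) to 26.6–34 CPM (median 31.9) (log2 fold change -0.47 ± 0.12, adjusted p = 6.48e-04). The inhibitory Fc receptor Fcgr2b did not pass (log2 fold change -0.06 ± 0.11, adjusted p = 0.626, and 0.39 with library totals).

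Bile duct markers were read against chow mouse 8. With all mice 9 of 16 rose and 0 fell (median 0.96), and without chow mouse 8 all 16 rose (median 2.47). Bicc1 rose from 2.72–12.6 CPM (median 6.25) to 19.6–66.8 CPM (median 47.3) (log2 fold change 2.71 ± 0.41, adjusted p = 2.07e-07). Keratin 23 (Krt23) rose from 0.226–3.64 CPM (median 1.16) to 4.56–10.2 CPM (median 6.65) (log2 fold change 2.29 ± 0.35, adjusted p = 2.55e-07), with all mice and without overlap. Keratin 19 (Krt19), the defining duct keratin, was at 156 CPM in chow mouse 8, 0.832–4.21 CPM in the other chow mice and 3.27–16.8 CPM (median 11.6) in DIO-MASH livers. Its log2 fold change went from -1.15 ± 0.67, which did not pass, to 2.24 (adjusted p = 2.97e-04) without that mouse, and that of Epcam from 0.17 ± 0.60 to 2.55 (adjusted p = 5.65e-05). The duct markers without chow mouse 8 were thus higher in DIO-MASH livers in every case. Of 8 gut, stomach or gallbladder markers tested 1 rose and 7 fell (median -4.45), and without chow mouse 8, 5 of 7 rose and 1 fell. Tff2 (-7.99 ± 1.24 and 1.93 without chow mouse 8), Krt20 (-7.15 ± 1.18 and 4.47), Lgals4 (-4.17 ± 0.78 and 0.43), Vil1 (-4.74 ± 0.90 and 1.57) and Slc5a1 (-2.47 ± 0.73 and 2.07) all changed sign. Cdh17 (-6.41 ± 1.09) had too few reads to test without it. Tff3 (-3.25 ± 0.71 and -1.59) did not change sign. The intestinal fatty acid binding protein Fabp2 rose in both fits (1.06 ± 0.25 and 1.85). The other genes that departed most in chow mouse 8 were Fcgbp, S100g, Ckmt1, Tm4sf5 and Cdhr2, at 722, 279, 144, 107 and 417 CPM in that liver and at most 1.52 CPM in any other chow mouse.

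Pancreas markers had a sum of 7.22 to 23.4 CPM in chow and 7.94 to 13.1 CPM in DIO-MASH livers and 8 and 9 of 15 markers at 0 reads in all mice of the group. Nearly all of that sum was the elastase Cela1, which fell from 7.0–22.6 CPM (median 20.9) to 7.77–13 CPM (median 10.8) (log2 fold change -0.73 ± 0.19, adjusted p = 0.00107) and was 1 of 2 pancreas markers tested. Of 3 muscle markers tested all fell, and without chow mouse 8 only 1 did.

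Oncofetal and tumour-associated genes rose in 9 of 16 cases and fell in 2 (median 0.98), and without chow mouse 8 in 12 and 1 (median 1.87). The growth factor midkine (Mdk) rose from 0.226–0.821 CPM (median 0.497) to 1.61–7.17 CPM (median 3.49) (log2 fold change 3.13 ± 0.54, adjusted p = 2.86e-06), without overlap, and the stem cell antigen Cd24a from 1.66–21.3 CPM (median 3.2) to 8.38–36.3 CPM (median 23.9) (log2 fold change 2.08 ± 0.47, adjusted p = 1.95e-04) (2.85 without chow mouse 8). Golm1 went from 0.24 ± 0.34, which did not pass, to 0.95 (adjusted p = 0.00497). Cell cycle genes rose in 36 of 44 cases and fell in 0 (median 2.08), 21 of them without overlap. The proliferation marker Mki67 rose from 0.592–4.18 CPM (median 1.26) to 7.76–22.2 CPM (median 13.7) (log2 fold change 3.05 ± 0.38, adjusted p = 1.96e-09). Cdc20, an activator of the anaphase complex, rose from 0–0.738 CPM (median 0.211) to 1.77–4.49 CPM (median 3.03) (log2 fold change 3.44 ± 0.40, adjusted p = 3.02e-10). Among the members that did not pass with all mice, those with the highest levels were Pcna (log2 fold change 0.17 ± 0.08, adjusted p = 0.0740), Tyms (log2 fold change 0.12 ± 0.10, adjusted p = 0.340) and Rrm2 (log2 fold change 0.63 ± 0.29, adjusted p = 0.0614), which act in DNA replication or nucleotide supply. Pcna did pass without chow mouse 8 (0.22, adjusted p = 0.0213) and Rrm2 without chow mouse 6 (1.02, adjusted p = 0.00195) or 3 (0.73, adjusted p = 0.0356).

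Stress responses were mixed. In the NRF2 antioxidant list 8 of 20 genes rose and 4 fell, with a median of -0.07 that became 0.47 without chow mouse 8 (10 and 3) and 0.38 with library totals. The cystine carrier Slc7a11 rose from 0–0.123 CPM (median 0) to 0.254–1.29 CPM (median 0.734) (log2 fold change 3.89 ± 0.64, adjusted p = 1.05e-06). The glutathione transferase Gsta2 fell from 30.5–96.5 CPM (median 49.4) to 9.92–16.4 CPM (median 11.1) (log2 fold change -2.09 ± 0.23, adjusted p = 1.36e-10). For both the groups stayed apart. Endoplasmic reticulum chaperones and sensors fell in 12 of 23 cases and rose in 1 (median -0.30, and 0.15 with library totals). Herpud1, of the degradation machinery, fell from 494–942 CPM (median 759) to 227–423 CPM (median 314) (log2 fold change -1.18 ± 0.18, adjusted p = 4.15e-07), and the factor Xbp1 (log2 fold change -0.68 ± 0.14, adjusted p = 6.50e-05), while Canx (log2 fold change -0.11 ± 0.09, adjusted p = 0.271) did not pass. Of 16 ATF4 targets 6 rose and 4 fell (median 0.25). Psat1, of serine synthesis, rose from 0–1.03 CPM (median 0.292) to 2.1–7.4 CPM (median 3.3) (log2 fold change 2.93 ± 0.40, adjusted p = 2.67e-08). Asparagine synthetase (Asns) fell from 0.615–14.8 CPM (median 7.46) to 0.252–2.14 CPM (median 1.05) (log2 fold change -2.61 ± 0.44, adjusted p = 1.69e-06).

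In iron handling 11 of 18 genes fell and 1 rose (median -0.58, and -0.12 with 5 falls and 4 rises under library totals). Hepcidin (Hamp), the hormone that blocks iron release into blood, fell from 804–1858 CPM (median 1295) to 45.4–398 CPM (median 166) (log2 fold change -2.83 ± 0.49, adjusted p = 2.94e-06), without overlap. Its relative Hamp2 was at 2633 CPM in chow mouse 1, 6.07–88.1 CPM in the other chow mice and 7.71–142 CPM (median 26.2) in DIO-MASH livers. The log2 fold change of Hamp2 went from -3.26 ± 0.85 to 0.67 without that mouse (adjusted p = 0.342), and was -4.06 without DIO-MASH mouse 2. The transferrin receptor Tfr2, which senses iron upstream of hepcidin, fell from 569.6–909 CPM (median 694) to 307–385 CPM (median 365) (log2 fold change -1.02 ± 0.10, adjusted p = 3.67e-12). The coreceptor Hfe2 (hemojuvelin) rose from 34.8–60.7 CPM (median 55.4) to 78.5–116 CPM (median 91.2) (log2 fold change 0.83 ± 0.14, adjusted p = 2.25e-06). Both were without overlap. Ferritin heavy chain (Fth1) did not pass (log2 fold change -0.09 ± 0.12, adjusted p = 0.520). Clock genes and outputs fell in 7 of 19 cases and rose in 0 (median -0.38, and 0.07 with library totals). The repressor Ciart fell from 6.69–22.2 CPM (median 14.8) to 1.91–8.26 CPM (median 3.87) (log2 fold change -1.79 ± 0.44, adjusted p = 5.50e-04). The core clock repressor Nr1d1 varied widely in chow livers, at 19.2–223 CPM (median 77.1), and did not pass (log2 fold change -0.42 ± 0.43, adjusted p = 0.421).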

How the data were processed

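Liver RNA of 56 mice in 7 groups of 8 was measured by RNA sequencing, and the 8 chow vehicle and 8 DIO-MASH vehicle mice were compared. The authors made libraries with a stranded mRNA kit on a NeoPrep system, sequenced them on a NextSeq 500 and deposited raw read counts per gene for 21935 genes, without normalization. The study's methods name STAR with GRCm38, while the submitters' processing notes list Trim Galore 0.6.4, Salmon 1.9.0 and GRCm38. The program that counted reads, and whether it used strand, are not given in the sources used here, so antisense and overlapping genes cannot be told apart. No mitochondrially encoded gene was analysed here.

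Columns were matched to mice by the animal numbers in the titles, no sample was left out, and no 2 columns of a group were copies (the smallest chi-square between 2 of them, divided by its degrees of freedom, was 10.6). A gene was tested where at least 3 of the 56 mice had at least 5 reads (14105 of 21935 genes). Counts were fitted with edgeR 4.0.16 in R 4.3.3 (TMM factors, all 7 groups in 1 quasi-likelihood fit, two-sided F tests of DIO-MASH vehicle minus chow vehicle, Benjamini-Hochberg adjustment over all genes kept, threshold 0.05). The standard error is the log2 fold change divided by the root of F. The test was checked on simulated data. Log2 CPM used a prior count of 2. Library measures were compared with exact two-sided permutation tests over 12870 relabellings. Coordinates are from GENCODE vM21 (GRCm38), and promoter windows from RefSeq (GRCm38.p6). Python 3.11.15 (pandas 2.3.3, numpy 2.4.6, scipy 1.17.1, matplotlib 3.10.9) made summaries and figures. Depth was 5228187 to 17157826 reads in the 16 mice compared, at which a gene near 1 CPM rests on few reads in the shallowest library.

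Genes named are the 12 largest rises and falls that held with and without chow mouse 8 (mean of 1 CPM or more, no overlap, ranked by the smaller change of both fits), the 8 largest gains and losses in CPM, for each list up to 5 genes past the test with the largest changes and up to 3 others with the highest CPM, all FGF21 axis genes and Kupffer, red cell and gut markers, and the 8 genes that departed most in chow mouse 8. This rule and the 53 gene lists, written from general knowledge, were chosen with earlier results of these data known, and Hmgcs1 was added after its values were seen. Some genes that the rule names are not reported here. Alternatives were DESeq2 1.42.0, its size factors, no filter, a stricter filter, both groups alone, the number series as covariate, each mouse left out, the fit without low-dose semaglutide mouse 6, and, chosen after seeing the data, library totals and the fit without chow mice 2 and 8.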

Additional observations from a re-analysis of the deposited data

Results flagged for a closer look

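Single mice lay far from the other 7 mice of their group in 8 of 116 values checked, where chance alone gives about 1 in 20. Chow mouse 8 stood apart in the summed markers of gut, stomach or gallbladder epithelium (5700 CPM, against 29.5 to 57 CPM in the other chow mice), in those of T and natural killer cells (41 CPM, against 2.61 to 7.21 CPM) and in the citrate carrier Slc13a2 (10.5 CPM, against 1.05–3.23 CPM). Chow mouse 2 stood apart on the low side in the odorant binding protein gene Obp2a (0.226 CPM, against 1.52–3.57 CPM) and the peroxisomal thiolase Acaa1b (234 CPM, against 918–1466 CPM). DIO-MASH mouse 1 stood apart in 3 values: the summed sinusoidal endothelial markers were lowest there (382 CPM, in a group whose median was 513 CPM), as was the adaptor Shc2 (4.56 CPM, group median 16.1 CPM), while the haemoglobin scavenger receptor Cd163 was highest there (2.84 CPM, group median 0.040 CPM). In that mouse Shc2 still lay above, and Cd163 below, every chow mouse.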

How the results depend on the processing

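The numbers of genes that passed kept within 1.5 times of those reported under all alternatives but 1. DESeq2's Wald test gave 7803 genes (4220 higher, 3583 lower), of which 7648 also passed edgeR, 7621 of them in the same direction. DESeq2's size factors gave 7747, no filter 7936, a stricter filter 7434, the 16 mice alone 6803, the number series as a covariate 7977 and the fit without low-dose semaglutide mouse 6 7857. Leaving out each mouse in turn gave 7468 to 7929 genes, 3806 to 4290 higher, 3563 to 3852 lower, 2099 to 2477 without overlap and 2911 to 3207 at 2-fold or more. Of the alternatives chosen after seeing the data, the fit without chow mice 2 and 8 gave 7843 genes (4297 higher, 3546 lower, 2850 without overlap), and library totals without TMM factors gave 9310, with 8537 higher, 773 lower and 3120 without overlap. That last shift follows from its construction, since it moves all genes upward alike.

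Of the 395 genes named by the rule, 394 kept direction and side of the threshold with DESeq2's size factors, 395 with no filter, 372 of 374 with the stricter filter, 375 of 387 in the 16 mice alone, 391 without low-dose semaglutide mouse 6, 364 with the number series, 373 with DESeq2, 307 with library totals, 344 of 393 without chow mice 2 and 8, and from 362 of 393 (without chow mouse 8) to 391 with 1 mouse left out. The log2 fold changes of the genes that changed sign, with at least 1 of both fits past the threshold, were as follows. With DESeq2's Wald test they were Cdh17 3.69, Ckmt1 1.38, Fcgbp 1.15, Gzma 0.28, Hamp2 0.48, Krt20 3.47, Lcn2 2.13, Lgals4 0.37, Orm2 0.76, S100g 2.61, Saa2 0.23, Slc5a1 1.64, Tff2 1.74, Tm4sf5 2.95 and Vil1 1.48. With the number series as a covariate they were Slc5a1 1.26 and Vil1 0.33. With library totals they were Apoe 0.17, Canx 0.34, Dhrs4 0.30, Dnase1l3 0.049, Ephx1 0.34, Fads1 0.35, Fcgr2b 0.39, Fth1 0.38, Gstm1 0.38, Gulo 0.39, Hfe 0.46, Hsd17b13 0.41, Khk 0.46, Mmp19 0.44, Myd88 0.47, Ndufa8 0.29, Ndufs5 0.37, Nr1h3 0.12, Nr1i2 0.34, Pdia3 0.23 and Stat5b 0.37. Without chow mice 2 and 8 they were Fcgbp 1.28, Gzma 0.29, Jchain 3.13, Krt19 2.12, Krt20 4.47, Lcn2 2.39, Lgals4 0.44, Ngp 0.076, Orm2 0.67, S100g 2.18, Saa2 0.013, Slc5a1 2.07, Tff2 2.03, Tm4sf5 2.94 and Vil1 1.53. With 1 mouse left out the ranges were Fcgbp -7.01 to 1.19, Gzma -3.01 to 0.29, Hamp2 -4.07 to 0.67, Jchain -0.60 to 2.06, Krt19 -1.34 to 2.24, Krt20 -7.59 to 4.47, Lcn2 -1.69 to 2.53, Lgals4 -4.36 to 0.43, Ngp -5.63 to 0.23, Orm2 -2.49 to 0.74, S100g -7.66 to 2.41, Saa2 -2.64 to 0.18, Slc5a1 -2.66 to 2.07, Tff2 -8.19 to 1.93, Tm4sf5 -6.49 to 3.12 and Vil1 -4.93 to 1.57. The sign changed without chow mouse 2 for Lcn2, Ngp, Orm2 and Saa2, without chow mouse 1 for Hamp2, and without chow mouse 8 for the other 11. In the 16 mice alone, with the number series and under library totals, 7, 13 and 20 named genes no longer passed. The cause of the changes under DESeq2 and the number series was not tested.

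With each mouse left out, the difference in depth stayed past no threshold, and that in the share of the 10 genes with most reads (-4.03 percentage points, p = 0.000622, two-sided exact permutation test) kept direction and side. No paired analysis was possible because the replicate numbers only follow the order of the records and pair no mice. The share of mitochondrial reads, a planned measure, was not run, since no mitochondrially encoded gene was analysed here. Depth limits genes near 1 CPM, which rest on few reads. Marker lists from general knowledge describe transcripts, not counted cells, and diet, body weight and biopsy selection move together.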

Other observations

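Among the largest gains in mean CPM were genes not yet given. Aldh3a2, which oxidizes long-chain fatty aldehydes, rose from 235–564 CPM (median 381) to 855–1338 CPM (median 1174) (log2 fold change 1.48 ± 0.13, adjusted p = 7.91e-14), and Cd74, the invariant chain of MHC class II, from 38.3–377 CPM (median 65.2) to 405–829 CPM (median 577) (log2 fold change 2.32 ± 0.33, adjusted p = 7.37e-08). Neither gene overlapped between the groups. The elongase Elovl5 rose from 332–905 CPM (median 576) to 494–1391 CPM (median 1116) (log2 fold change 0.88 ± 0.20, adjusted p = 1.86e-04), with overlap. Of the 50 genes with most reads in DIO-MASH livers, 5 rose, 32 fell and 13 did not pass.

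Chow mouse 1 also departed in a few genes. Hamp2 was at 2633 CPM there, and C1s2, a copy of complement C1s, at 21.5 CPM, against 0 to 0.217 CPM in the other chow mice and 0 to 18.9 CPM in DIO-MASH livers. Chow mouse 7 held 1613 CPM of Saa1 and 151 CPM of Lcn2, the highest of the chow mice other than mouse 2.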
